A study of Drosophila melanogaster with 19 samples.

Results

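Pvf2 and Serrate (Ser), the genes of a secreted and a membrane-bound signalling ligand, were followed across 3 genotypes and 2 tissues of the adult fruit fly. They are 2 of 32162 probes on the array (A_09_P121465 for Pvf2 and A_09_P010266 for Ser). Both were chosen by their higher signal in the body of flies that overexpress nub-RB than in driver controls. That contrast, and every contrast that shares its arrays, is therefore given as a description without a test.

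Pvf2 is a growth factor of the PDGF and VEGF family and a ligand of the receptor tyrosine kinase Pvr, which in Drosophila acts on the survival, spread and proliferation of hemocytes and on the division of midgut stem cells. Ser is a transmembrane ligand that activates the Notch receptor on a neighbouring cell. In Drosophila, Notch signalling decides between fates of the progeny of midgut stem cells, and Ser is known for its part in the formation of crystal cells in the larval lymph gland.

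The samples were 10-day-old females from mixed-sex populations, kept at 25 °C as adults and dissected into gut and "rest", which is the fly without gut and head. The groups were c564>nub-RB rest (4 arrays), c564>Pdm2-RB rest (3), c564>+ rest (3), c564>nub-RB gut (3), c564>Pdm2-RB gut (3) and c564>+ gut (3). c564>nub-RB flies (w; UAS-nub-RB/c564-Gal4) express the long isoform of the POU transcription factor Nubbin under the c564-Gal4 driver. This driver is active in fat body, in midgut (per the study) and in other tissues. c564>Pdm2-RB flies (w; UAS-Pdm2-RB/c564-Gal4) express Pdm2-RB, of the related gene pdm2, under the same driver. The controls, c564>+, carry the driver over a w1118 background and no UAS transgene, so overexpression cannot be told apart from the presence of a UAS insertion. The labels of the control samples spell the driver c546-Gal4, and the series' design spells it c564-Gal4.

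Each array carried the RNA of a pool of flies, and the number of arrays limits the precision. There were 6 slides and 2 scan dates (10 and 9 arrays), and both dates hold arrays of more than 1 group. The share of probes well above background ran from 65.17% to 83.83% over the arrays, and no spot was saturated. The dimmest array was c564>+ gut replicate 1, with a median signal of 35.4 before normalization, against up to 245.2 on the brightest array. The 5 probes for nub did not all follow the transgene. The brightest, A_09_P004151, overlapped between c564>nub-RB (56.6 to 99.6) and c564>+ (54.6 to 127) in rest and between c564>nub-RB (7580 to 11100) and c564>+ (5610 to 10200) in gut. A_09_P048246 did not overlap, at 20.1 to 37.4 in c564>nub-RB rest against 1.7 to 8.94 in c564>+ rest, and 114 to 259 in c564>nub-RB gut against 31.8 to 53.1 in c564>+ gut. In rest it was dim, with 3 of 4 c564>nub-RB arrays and 1 of 3 c564>+ arrays well above background. In gut its log2 difference of 1.91 was not called at a false discovery rate of 1% (limma adjusted p = 0.0699). This probe was also above the controls in c564>Pdm2-RB gut, at 62.6 to 113. No probe could be named for pdm2.

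Pvf2 was higher in the rest of both overexpression genotypes than in c564>+ rest. Its normalized signal, which is linear and has no unit, was 308, 460, 305 and 386 in c564>nub-RB rest, against 80.3, 86.7 and 112 in c564>+ rest. The lowest c564>nub-RB array was above the highest control array, and the difference of the mean log2 signals was 1.97 ± 0.19 (SE), or 3.9-fold. In c564>Pdm2-RB rest, Pvf2 had signals of 189, 225 and 297, which lie above all control arrays and below all c564>nub-RB arrays. The difference was 1.34 ± 0.21 (SE) on the log2 scale for c564>Pdm2-RB rest minus c564>+ rest. For c564>nub-RB rest minus c564>Pdm2-RB rest it was 0.63 ± 0.21 (SE). The highest c564>Pdm2-RB array, at 297, was close to the lowest of c564>nub-RB, at 305.

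Ser was the weaker signal in rest and had the same order of genotypes. It read 112, 172, 100 and 144 in c564>nub-RB rest, against 23, 38.9 and 37 in c564>+ rest. All these values were well above background, but only in c564>nub-RB rest did a group mean of Ser in rest, at 132, pass the signal of 130 that a probe needed to be tested. The groups did not overlap, and the difference was 2.01 ± 0.25 (SE) on the log2 scale, or 4.02-fold. In c564>Pdm2-RB rest, Ser had signals of 72.4, 73.9 and 81.4, a narrow range that lay between those of the other genotypes without overlap. The log2 difference was 1.24 ± 0.22 (SE) for c564>Pdm2-RB rest minus c564>+ rest and 0.77 ± 0.19 (SE) for c564>nub-RB rest minus c564>Pdm2-RB rest.

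**Figure D1:**
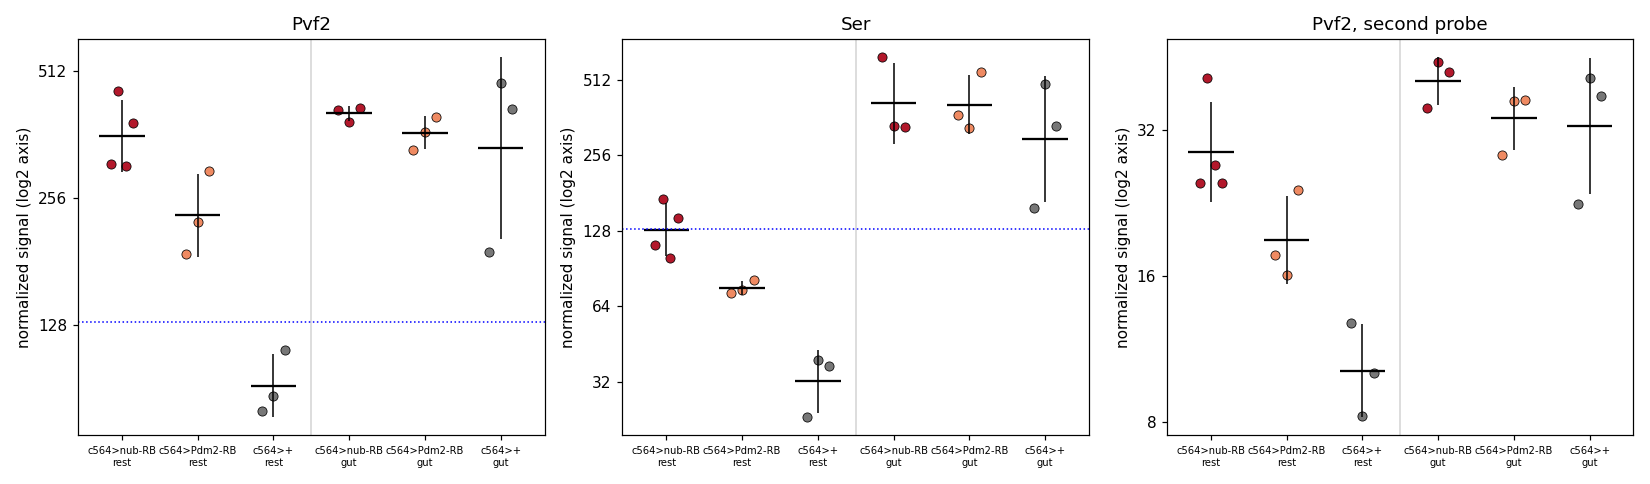
Normalized signal (log2 axis) of Pvf2, Ser and the second Pvf2 probe on each of the 19 arrays (points), by group. Horizontal bars are means and vertical lines 1 SD of the log2 signals, and the dotted line marks the signal of 130 used as a filter. In rest the genotypes are separate for Pvf2 (305 to 460, 189 to 297 and 80.3 to 112) and for Ser (100 to 172, 72.4 to 81.4 and 23 to 38.9), and in gut they overlap.

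Separation of this kind was not rare on these arrays. Among the probes tested, 14.9% had all c564>nub-RB rest arrays above all c564>+ rest arrays, 13.7% had all c564>Pdm2-RB rest arrays above all c564>+ rest arrays, and 8.92% had all c564>nub-RB rest arrays above all c564>Pdm2-RB rest arrays. Nothing is read from the members' separation against these shares, since the first contrast chose them.

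The difference between c564>nub-RB rest and c564>+ rest was of the same size on both scan dates. For Pvf2 it was 2.04 on the first date (1 array against 1) and 1.99 on the second (3 against 2), and for Ser it was 2.22 and 1.97, all on the log2 scale. The differences that involve c564>Pdm2-RB rest were less even. Pvf2 in c564>Pdm2-RB rest minus c564>+ rest was 0.88 on the first date (2 arrays against 1) and 1.83 on the second (1 against 2), and Ser was 0.98 and 1.44. Pvf2 in c564>nub-RB rest minus c564>Pdm2-RB rest was 1.16 (1 array against 2) and 0.16 (3 against 1), and Ser was 1.23 and 0.53. The direction was thus the same on both dates for both genes, while the step between the overexpression genotypes was small for Pvf2 on the second date.

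A second probe for Pvf2, A_09_P020266, gave the same order of genotypes at a much dimmer signal. It read 24.9, 40.9, 27.1 and 24.9 in c564>nub-RB rest, 17.7, 16.1 and 24 in c564>Pdm2-RB rest and 12.8, 8.24 and 10.1 in c564>+ rest, where 2 of 3 arrays were well above background. Its log2 difference was 1.5 ± 0.23 (SE) for c564>nub-RB rest minus c564>+ rest and 0.90 ± 0.22 (SE) for c564>Pdm2-RB rest minus c564>+ rest. No group mean of this probe passed 130, so it was not tested. Per RefSeq, Pvf2 lies on chromosome arm 2L beside Pvf3, a gene of the same family, and Ser lies on 3R.

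In the gut, neither ligand differed detectably between the genotypes. Pvf2 read 414, 387 and 419 in c564>nub-RB gut, 333, 368 and 399 in c564>Pdm2-RB gut and 191, 480 and 417 in c564>+ gut. The overexpression groups were tight and the control group was wide, with its lowest value, 191, on the dimmest array and the other two above most arrays of the other genotypes. The log2 difference was 0.27 for c564>nub-RB gut minus c564>+ gut (95% interval -0.61 to 1.15, limma adjusted p = 0.733). It was 0.12 for c564>Pdm2-RB gut minus c564>+ gut (-0.77 to 1.01, limma adjusted p = 0.895). The most precise of the gut comparisons for Pvf2 was c564>nub-RB gut minus c564>Pdm2-RB gut, at 0.15 (-0.15 to 0.45, limma adjusted p = 0.657).

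Ser read 633, 334 and 332 in c564>nub-RB gut, 372, 329 and 552 in c564>Pdm2-RB gut and 158, 495 and 335 in c564>+ gut. Both overexpression genotypes held 1 array well above the other two, the control values were spread widely with the lowest on the dimmest array, and all groups overlapped. The log2 difference was 0.47 for c564>nub-RB gut minus c564>+ gut (95% interval -0.71 to 1.66, limma adjusted p = 0.647). It was 0.45 for c564>Pdm2-RB gut minus c564>+ gut (-0.66 to 1.56, limma adjusted p = 0.65). Between c564>nub-RB gut and c564>Pdm2-RB gut it was 0.02 (-0.80 to 0.83, limma adjusted p = 0.986). The intervals against the control still allow changes of over 2-fold upward for both genes.

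The share called at a false discovery rate of 1% was 0.497% of 16698 probes for c564>nub-RB gut against c564>+ gut, 0.344% of 16566 for c564>Pdm2-RB gut against c564>+ gut and 0.339% of 16539 for c564>nub-RB gut against c564>Pdm2-RB gut. These are 83, 57 and 56 probes, against 3059, 2856 and 2099 at an unadjusted p under 0.05. With 1 array left out the counts were 6 to 46, 6 to 31 and 7 to 27, and with 1 limma model over all 6 groups they were 679, 436 and 231. Without the dimmest array, c564>+ gut replicate 1, Pvf2 was lower in the overexpression genotypes than in the control, by a log2 difference of -0.14 for c564>nub-RB gut and -0.29 for c564>Pdm2-RB gut, and Ser differed by 0.02 and 0.00. None of these differences passed the test either. That array was also the only control gut array of the second scan date. On the first date, Pvf2 differed by -0.14 and Ser by 0.02 in c564>nub-RB gut minus c564>+ gut (3 arrays against 2), and by -0.16 and 0.44 in c564>Pdm2-RB gut minus c564>+ gut (1 against 2). On the second date, c564>Pdm2-RB gut minus c564>+ gut was 0.87 for Pvf2 and 1.14 for Ser (2 arrays against 1). For c564>nub-RB gut minus c564>Pdm2-RB gut only the first date holds both groups, with 0.03 for Pvf2 and -0.42 for Ser (3 arrays against 1).

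**Figure D2:**
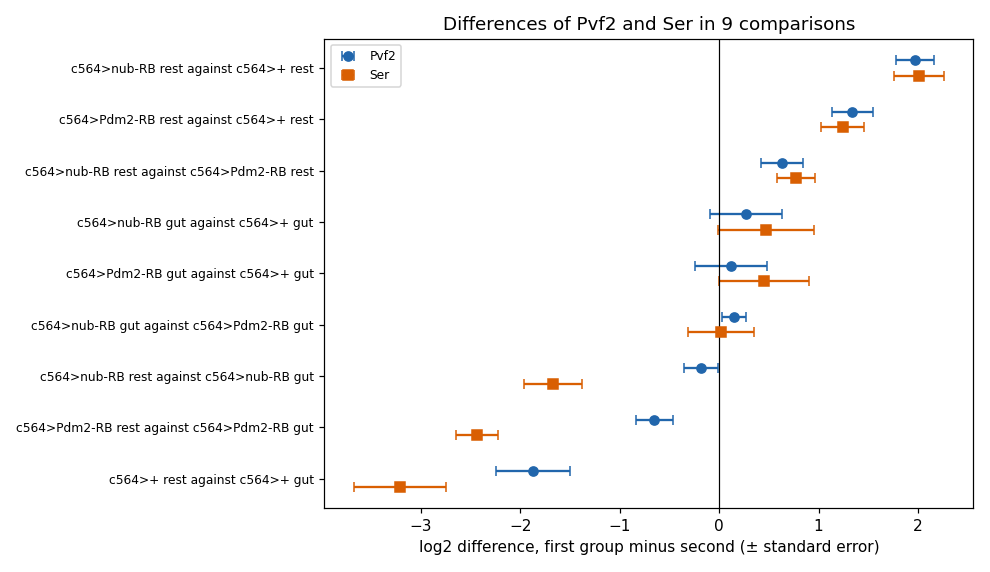
Difference of mean log2 signals with its standard error (bars) for Pvf2 (circles) and Ser (squares) in the 9 comparisons, first-named group minus second. The differences in rest are 0.63 to 2.01, those in gut lie between 0.02 and 0.47, and in the comparisons of rest with gut Ser is farther below 0 than Pvf2.

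Set against the gut, the rest of the same genotype had less of both ligands in the controls, and the gap was smaller in the overexpression genotypes. In c564>+ flies the log2 difference of rest minus gut was -1.87 ± 0.37 (SE) for Pvf2 and -3.21 ± 0.46 (SE) for Ser, and no rest array reached a gut array. In c564>nub-RB flies Ser was still lower in rest than in gut on every array (-1.67 ± 0.29, SE). Pvf2 was not, at 305 to 460 in rest and 387 to 419 in gut, with a log2 difference of -0.18 ± 0.17 (SE). At the dimmer second Pvf2 probe this difference was larger, at -0.49 ± 0.21 (SE), and the tissues overlapped as well. Within the scan dates, rest minus gut in c564>+ flies was -2.0 and -1.20 for Pvf2 and -3.46 and -2.40 for Ser. In c564>nub-RB flies, whose gut arrays were all of the first date, it was 0.18 for Pvf2 and -1.26 for Ser (1 array against 3). Across all tested probes, 30.9% had every rest array below every gut array in c564>+ flies and 28.2% in c564>nub-RB flies.

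The c564>Pdm2-RB flies were in neither of the groups that chose the genes, so their tissues were tested. Ser was 0.186 times as high in rest (72.4 to 81.4) as in gut (329 to 552), a log2 difference of -2.43 ± 0.21 (SE) that passed the test (limma adjusted p = 0.000172) and had the same sign on both scan dates, at -2.92 and -2.10. Ser passed the signal filter here through the gut group alone, and without that filter it was called as well (limma adjusted p = 0.000422). Pvf2, at 189 to 297 in rest and 333 to 399 in gut, did not overlap between the tissues, with a log2 difference of -0.65 ± 0.19 (SE, 95% interval -1.13 to -0.18). It missed the 1% threshold (limma adjusted p = 0.0226). Differences between the tissues were common: 60.8% of 17460 probes were called in this comparison, and 30.1% had every rest array below every gut array.

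The size of the Pvf2 difference between c564>Pdm2-RB rest and gut depended on the scan date and on the scaling. It was -0.96 on the first date (2 arrays against 1) and -0.24 on the second (1 against 2). Without c564>Pdm2-RB rest replicate 4, the highest of the 3 rest arrays and the only one of the second date, it was -0.83 and passed the test (limma adjusted p = 0.00568). With arrays scaled to their 75th percentile it was -1.38 and passed as well (limma adjusted p = 0.00321). At the 1% threshold it did not pass under any other alternative. The highest adjusted p was 0.195, in a t-test with 1 standard deviation for all probes. Between tissues, the median log2 difference of all tested probes was 0.08 with scaling to the 75th percentile and 0.40 with quantile normalization in c564>Pdm2-RB flies, 0.11 and 0.33 in c564>nub-RB flies and 0.01 and 0.33 in c564>+ flies. Relative to these medians, Pvf2 differed by -1.47 with the 75th percentile and -1.05 with quantile normalization in c564>Pdm2-RB flies, by -0.67 and -0.51 in c564>nub-RB flies and by -2.38 and -2.20 in c564>+ flies. The same values of Ser were -3.25 and -2.83, -2.21 and -2.01, and -3.70 and -3.54.

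The change of the tissue gap can be given as the difference in rest minus the difference in gut, which uses the arrays that chose the genes and was not tested. For c564>nub-RB relative to c564>+ it was 1.69 ± 0.38 (SE) for Pvf2 and 1.54 ± 0.51 (SE) for Ser on the log2 scale. For c564>Pdm2-RB relative to c564>+ it was 1.22 ± 0.40 (SE) for Pvf2 and 0.78 ± 0.53 (SE) for Ser. In whole dissected tissue, more transcript per cell and more cells that express the gene cannot be told apart.

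The order of the 6 groups was alike for the ligands except for the place of c564>nub-RB rest and c564>+ gut. Pvf2 was highest in c564>nub-RB gut (mean log2 signal 8.67 ± 0.06, SD), followed by c564>Pdm2-RB gut (8.51 ± 0.13), c564>nub-RB rest (8.49 ± 0.28), c564>+ gut (8.40 ± 0.71) and c564>Pdm2-RB rest (7.86 ± 0.33), with c564>+ rest lowest (6.52 ± 0.25). Neighbours overlapped along this order down to c564>Pdm2-RB rest, and only the last step, of 1.34, was without overlap. Without c564>+ gut replicate 1, the mean of c564>+ gut was the highest of Pvf2, and the means of all gut groups of both ligands were then above those of all rest groups. For Pvf2 the gap was only 0.03 on the log2 scale, between c564>Pdm2-RB gut and c564>nub-RB rest, whose arrays overlapped. Ser was highest in c564>nub-RB gut (8.69 ± 0.54), c564>Pdm2-RB gut (8.67 ± 0.39) and c564>+ gut (8.21 ± 0.84), which overlapped, and then in c564>nub-RB rest (7.01 ± 0.35), c564>Pdm2-RB rest (6.24 ± 0.09) and c564>+ rest (5.0 ± 0.42). The 3 rest groups of Ser were separate from each other. The 158 of the dimmest control gut array fell among the c564>nub-RB rest values of Ser. These levels describe groups that include the ones the genes were chosen on.

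Markers of several cell types also differed between the genotypes in rest, some in the direction of the ligands and some in the other. Blood cell genes were higher in the overexpression genotypes: all 5 named plasmatocyte markers (Hml, NimC1, eater, Sr-CI and He, of 7 on the list) were above the controls without overlap in c564>nub-RB rest, with a median log2 difference of 2.21, and 4 of 5 in c564>Pdm2-RB rest, with a median of 1.10. The shares of all tested probes without such overlap are the 14.9% and 13.7% given above. These markers were named from the study's comparison of c564>nub-RB with c564>+, which names mostly changed genes, so their counts are a description. Over all tested probes the median was -0.05 and 0.03. The summed signal of these markers was 11100 to 18200 in c564>nub-RB rest, 5490 to 7810 in c564>Pdm2-RB rest and 2540 to 4080 in c564>+ rest. Within c564>nub-RB rest, replicates 2 and 4 had the highest marker sums, of 18200 and 17900, and the highest Pvf2 and Ser signals. Within c564>Pdm2-RB rest, replicate 1 had the lowest marker sum, of 5490, and the lowest Pvf2 signal. Replicate 2 had the highest sum there, of 7810, but its Pvf2 (225) and Ser (73.9) were below those of replicate 4. In replicate 4 the sum was 7600, Pvf2 297 and Ser 81.4. Both named crystal cell genes, PPO1 and PPO2, which encode prophenoloxidases, had a summed signal of 23600 to 35900 in c564>nub-RB rest, 8100 to 15100 in c564>Pdm2-RB rest and 2430 to 6130 in c564>+ rest. PPO1 and PPO2 were named in the same way as the plasmatocyte markers, so their values are a description as well. In the gut groups, where both ligands were high, the plasmatocyte sum was 1290 to 3440. The crystal cell sum was 2970 to 6950 in c564>nub-RB gut, 5010 to 11700 in c564>Pdm2-RB gut and 4850 to 8430 in c564>+ gut. The part of blood cell content in the ligands' differences was not tested.

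The gut digestive enzymes that could be named were lower in the rest of the overexpression genotypes than in c564>+ rest. All but 1 of these 19 genes, mostly trypsins and Jonah proteases and 19 of 28 on the list, were named from the study's list of proteolysis genes that changed in rest, so the direction is no independent result. Their summed signal was 3460 to 421000 in c564>nub-RB rest and 4050 to 92800 in c564>Pdm2-RB rest, against 474000 to 1250000 in c564>+ rest. In gut samples it was 4790000 to 5560000. Within c564>nub-RB rest the sums were uneven, at 414000 and 421000 in replicates 1 and 4 and 3460 and 11300 in replicates 2 and 3. The controls had the lowest Pvf2 and Ser signals and the highest enzyme sum in rest. Both ligands were brighter in gut than in rest in these control flies. No link of the enzyme signal to the ligands' differences was tested. Single genes marked muscle and fat body: Act88F, an actin of the indirect flight muscle, had signals of 8820 to 43000 in c564>nub-RB rest, 2270 to 8710 in c564>Pdm2-RB rest and 626 to 3440 in c564>+ rest. Of the 2 named fat body genes, Lsp2, a larval serum protein, had signals of 733 to 17800 in c564>nub-RB rest, 119 to 4340 in c564>Pdm2-RB rest and 69.6 to 380 in c564>+ rest. Fbp2 had 44.6 to 82.1, 24.7 to 36.2 and 7.16 to 17.6 in these groups and was brighter in the gut groups (141 to 228), so it did not mark the fat body here. Act88F, Fbp2 and Lsp2 were named in the same way as the plasmatocyte markers. Their part in the ligands' differences was not tested, and no marker of ovary or of gut stem and enteroendocrine cells could be named.

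**Figure D3:**
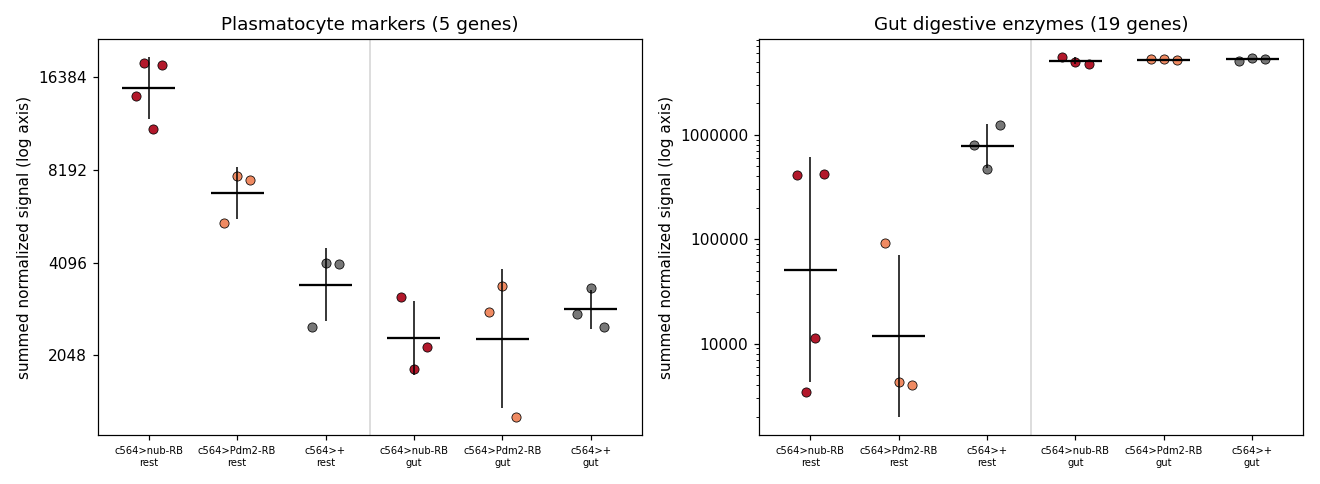
Summed normalized signal (log axis) of 5 plasmatocyte markers and of 19 gut digestive enzymes on each array (points), by group, with the mean and 1 SD of the log values. The plasmatocyte sum is highest in c564>nub-RB rest (11100 to 18200) and the enzyme sum in rest is highest in c564>+ (474000 to 1250000).

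Most other genes of both pathways could not be read, because few probes could be named. Of 3 PVR ligands only Pvf2 was named, of 16 genes for the receptor Pvr and its transducers none, of 2 Notch ligands only Ser, and of 20 genes for the receptor Notch, ligand handling and transduction none. Among 15 Notch targets and Bearded family genes, Tom and BobA were named. Both belong to the Bearded family, whose products bind Neuralized in Drosophila and restrain the endocytosis of the Notch ligand Delta. Their signals spread widely within groups, and both were named from the study's list of probes that changed in rest and in gut, so they were chosen on these arrays and are given without a test. Tom read 2.72 to 2390 in c564>nub-RB gut, where 2 of 3 arrays were well above background, 1640 to 16500 in c564>Pdm2-RB gut and 10400 to 25800 in c564>+ gut. BobA read 25.3 to 1100, 1970 to 14900 and 10100 to 23100 in those groups. In rest, where Ser was separate between the genotypes, Tom read 8.57 to 45.2 in c564>nub-RB rest, 10.4 to 264 in c564>Pdm2-RB rest and 13.6 to 571 in c564>+ rest, with overlap throughout.

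The named probes whose log2 signals followed Pvf2 most closely over the 19 arrays were Tsf3, a gene of the transferrin family (Pearson r = 0.96), CG4269 (0.93) and CG10516 (0.93). For Ser they were CG10126 (0.98) and both probes of CG13707 (0.98 each). Among 18118 probes above the filter, 904 carried a name, most of them genes from the study's lists, and the arrays fall apart by tissue, so these values are a description. The mean log2 signal of Tsf3 was 10.26 in c564>nub-RB rest, 9.72 in c564>Pdm2-RB rest and 8.98 in c564>+ rest, and 10.50, 10.25 and 9.93 in the gut of the same genotypes. CG13707 followed Ser, with mean log2 signals at A_09_P052821 of 8.76, 7.64 and 6.44 in rest and 10.98, 10.53 and 10.36 in gut.

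**Figure D4:**
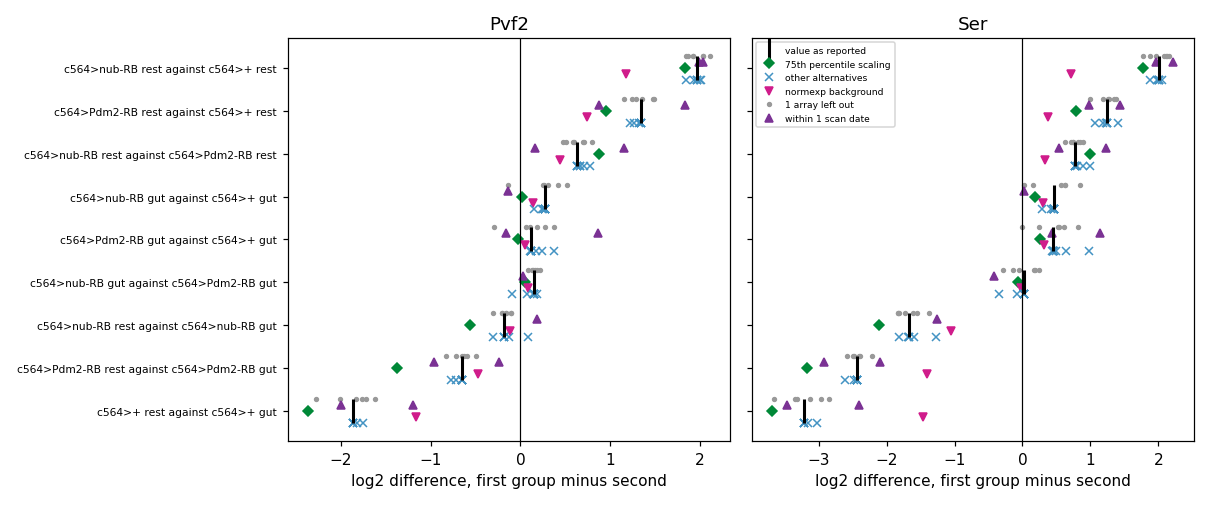
Log2 difference of Pvf2 and Ser in the 9 comparisons under each alternative processing (symbols) and as reported (black bars), first-named group minus second. The differences in rest and those of Ser between tissues keep their sign under all alternatives shown, while the ranges of those in gut extend to 0 or below it in at least 1 gene of each comparison.

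Across the alternatives, Pvf2 in c564>nub-RB rest minus c564>+ rest ranged from 1.18 to 2.11 and Ser from 0.71 to 2.22 on the log2 scale. The lowest of each was the normexp background correction, which adds an offset of 50 to each signal. For Ser, c564>Pdm2-RB rest minus c564>Pdm2-RB gut was -1.41 with normexp and -3.17 with scaling to the 75th percentile and passed the test in both cases.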

How the data were processed

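RNA of 19 samples was hybridised to 1-color Agilent arrays. Per the submitters' processing notes and the study's methods, the authors used Agilent Feature Extraction 10.7.3.1, which corrects the background within an array, and quantile normalization in Partek. The deposited scanner intensity (the processed signal of each spot) was used here. The 46 to 87 spots per array marked as outliers were left out, the spots of a probe were averaged, and the 19 arrays were quantile-normalized and put on a log2 scale. Of the values, 99.92% lay within 0.01 (log2) of the authors' deposited normalized intensity table, and those of Pvf2 and Ser within 0.00255. Genotypes and tissues were compared with limma 3.58.1 in R 4.3.3 on the arrays of each comparison, over probes with a mean signal above 130 in at least 1 of the compared groups, with Benjamini-Hochberg adjustment at 1%. The code of the fit was checked on simulated arrays with known changes. These had the same spread for all probes and no slide or scan date, so they say nothing about such effects in the real arrays. Replicates are separate pools of flies, per the methods. Whether rest and gut of the same number are from the same flies was not given in the sources used here.

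Of 32162 probes, 1386 could be given a gene symbol, from RefSeq accessions, from the study's supplementary gene lists and from transcripts shared with a named probe. Those lists hold mostly changed genes. The genes named are Pvf2, Ser, members of lists of the PVR and Notch pathways, POU factors and other secreted ligands, and the named probes most like each member, taking 3 for each. Marker lists covered plasmatocytes, crystal cells, gut digestive enzymes, fat body, muscle, ovary and gut stem and enteroendocrine cells, and the brightest probe of a gene was used. The members and the lists were chosen with earlier results of these data known. The alternatives were scaling to the 75th percentile, normalization within a tissue, a normexp background correction with offset 50, the authors' table, no signal threshold, 1 model over all 6 groups without and with slide or scan date, values within a scan date, the replicate number as a block, the methods' t-test in 2 forms, a false discovery rate of 5%, and leaving out each array in turn. Columns of the authors' own comparisons were not used.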

Additional observations from a re-analysis of the deposited data

How the results depend on the processing

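Of 324 recomputed values of Pvf2 and Ser over 9 comparisons, 283 kept their side of the threshold and direction or, where untested, moved by less than the spread between replicates. Some of these were fixed in advance. In the untested comparisons, no signal threshold and 1 model over all 6 groups cannot change the difference, and the authors' table hardly can. None of the 6 gut results passed the test under any alternative that gives one. The sign of Pvf2 did not hold in the gut comparisons, nor did that of Ser between the overexpression genotypes. Against c564>+ gut, Ser did not reverse, at 0.02 to 0.84 for c564>nub-RB gut and 0.00 to 1.14 for c564>Pdm2-RB gut. Pvf2 in c564>Pdm2-RB gut minus c564>+ gut was -0.03 with the 75th percentile, 0.87 within the second scan date, and -0.29 to 0.37 with 1 array left out. In c564>nub-RB gut minus c564>+ gut it was -0.14 to 0.52 with 1 array left out. Ser in c564>Pdm2-RB gut minus c564>+ gut was 1.14 within the second date. In c564>nub-RB gut minus c564>Pdm2-RB gut, Pvf2 was -0.09 with scan date as a block and 0.03 within the first date, and Ser was -0.06 with the 75th percentile, -0.02 with normexp, -0.08 with slide as a random block, -0.34 with scan date as a block, -0.42 within the first date and -0.29 to 0.24 with 1 array left out. In c564>Pdm2-RB rest minus c564>Pdm2-RB gut, Ser was -2.92 and -2.10 within the dates. Pvf2 passed with the 75th percentile (-1.38) and at a false discovery rate of 5% (-0.65), was -0.96 and -0.24 within the dates, and -0.83 to -0.50 with 1 array left out. With normexp, c564>nub-RB rest minus c564>+ rest was 1.18 for Pvf2 and 0.71 for Ser, c564>Pdm2-RB rest minus c564>+ rest 0.74 and 0.38, c564>+ rest minus c564>+ gut -1.16 and -1.47, and, for Ser, c564>nub-RB rest minus c564>Pdm2-RB rest 0.33 and c564>nub-RB rest minus c564>nub-RB gut -1.05. In c564>Pdm2-RB rest minus c564>+ rest, the 75th percentile gave 0.96 for Pvf2 and 0.78 for Ser, and the dates gave 0.88 and 1.83 for Pvf2. In c564>nub-RB rest minus c564>Pdm2-RB rest the dates gave 1.16 and 0.16 for Pvf2, and the first date 1.23 for Ser. Pvf2 in c564>nub-RB rest minus c564>nub-RB gut was -0.56 with the 75th percentile, 0.09 with scan date as a block and 0.18 within the first date. In c564>+ rest minus c564>+ gut the second date gave -1.20 for Pvf2 and -2.40 for Ser. Normexp adds an offset and the values within a date rest on few arrays, but the cause of these changes was not tested.

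With the replicate number as a block, Ser in c564>Pdm2-RB gut minus c564>+ gut was 0.98 (limma adjusted p = 0.187), and the block changed no call of Pvf2 or Ser. The correlation of the deviations of same-numbered samples ranged from -0.46 to 0.66 over 24 pairs and was over 0.1 in 7. Both pairs of c564>Pdm2-RB gut with c564>+ gut had 0.66 and 0.40, and those of c564>nub-RB gut with c564>+ gut had -0.46 to -0.38. As no comparison had 3 pairs all over 0.1 and no source ties the numbers, the samples were taken to share only a number. Over all probes, limma with the block called 0 in each gut comparison (513 to 3525 at an unadjusted p under 0.05), against 56 to 83 without it. Under the other alternatives 4 to 825 were called in the gut comparisons.

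Groups of 3 or 4 arrays limit the precision, and the control gut group had the widest spread for both genes. Ser in c564>+ rest is dim, and most genes of both pathways carry no name here.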
